A study of Mus musculus with 2 samples.

Results

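Cell junction genes of the hepatocyte were followed in 2 liver RNA-seq libraries of CD-1 mice, an outbred laboratory strain. The set held the connexins Gjb1 and Gjb2, the claudins Cldn1, Cldn2, Cldn3, Cldn12 and Cldn14, and the tight junction genes Tjp1 and Ocln. Members were chosen by symbol, 9 of the 37146 genes in the deposited tables. One library came from the NP group, which was given titanium dioxide nanoparticles (TiO2 NPs) by mouth at 50 mg per kg body weight per day after 30 min of ultrasonic stirring. The other came from the Control group, given the same volume of phosphate-buffered saline (PBS). The labels state neither age, sex and length of dosing nor how many mice each library represents.

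Gap junctions are clusters of channels that join the cytoplasm of neighbouring cells. In liver they carry second messengers and metabolites between hepatocytes. Tight junctions seal the space between hepatocytes and separate the bile canaliculus from the blood side. Claudins make up their strands, occludin is a further membrane protein of the strand, and zonula occludens proteins tie the strands to actin. Whole liver was sequenced, so fewer cells of a type and less RNA per cell cannot be told apart.

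Levels are in FPKM (fragments relative to row length and to library size), added up over all rows of a gene. Ranges in brackets come from the 95% intervals that the authors give for each row, which do not cover how animals vary. For a gene with several rows above 0 the row intervals were combined as if independent, so the 95% level is not assured. There was 1 library per group, so no test or p-value was possible, and each difference is one between these libraries. NP was the more deeply covered library, with 2.93 reads per base for each FPKM, against 2.29 in Control. A ratio counted as different in size when it reached 1.5-fold on the scale of log2(FPKM + 1), and 8.92% of the 10533 genes that averaged 1 FPKM or more did so. All 9 junction genes passed that filter, and 0 of the 9 reached 1.5-fold. The NP interval lay apart from the Control interval for 1 of the 9, Cldn2, against 17.3% of all genes.

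**Figure D1:**
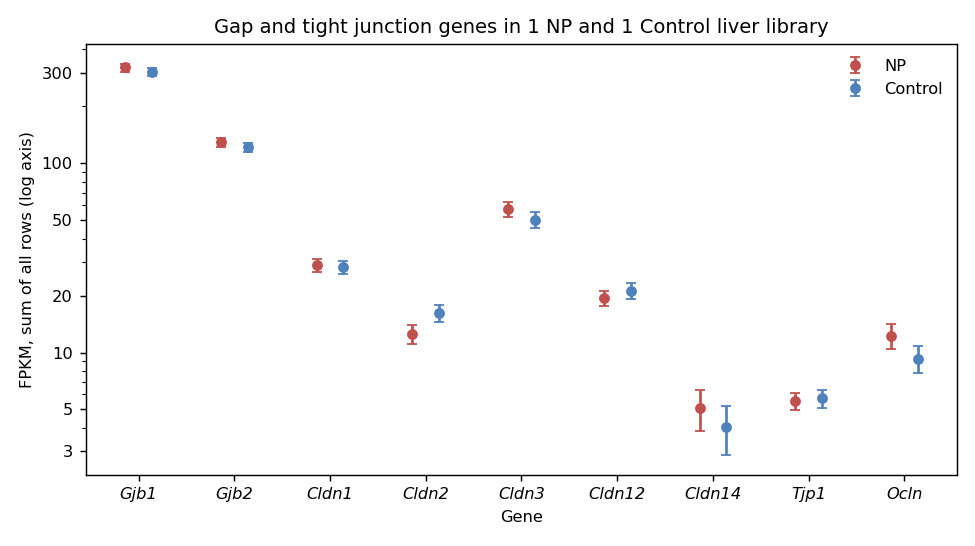
Level of each junction gene in FPKM (log axis) in the NP library (red) and the Control library (blue), with bars combined from the 95% intervals of its rows. Gjb1 and Gjb2 lie highest in both libraries, and Cldn2 is the gene whose bars do not overlap.

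The 2 connexins were the most abundant members, and their levels were close in the libraries. Gjb1 encodes Cx32, the main connexin of hepatocytes, and lies on chromosome X from 98571717 to 98580968 (build mm9 of the files). It was at 321 FPKM (305 to 337) in NP and 306 FPKM (290 to 321) in Control. Gjb2 encodes Cx26, which in rodent liver is found mainly in periportal hepatocytes, and lies on chromosome 14 from 57717437 to 57723539. It was at 129 FPKM (122 to 136) in NP and 122 FPKM (115 to 129) in Control. Both values were slightly higher in NP, by a ratio of 1.05 for Gjb1 and 1.06 for Gjb2, with overlapping intervals. The ratio of Gjb1 to Gjb2 was 2.49 in NP and 2.51 in Control, so the balance of the pair was nearly the same. In the order of all expressed genes Gjb1 stood at place 251 in NP and 247 in Control.

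Nearly all connexin signal belonged to this pair. Together they held 98.7% of the FPKM of all listed connexins in NP and 98.5% in Control. The other 18 connexins summed to 5.73 FPKM in NP and 6.49 FPKM in Control. Gja4 and Gja1, connexins known from vessel walls and from stellate cells, were low. Gja4 was at 1.45 FPKM in NP and 2.31 FPKM in Control, and Gja1 at 1.37 FPKM in NP and 1.16 FPKM in Control. Gjc3 was at 2.41 FPKM in NP and 2.73 FPKM in Control. The intervals of all 3 overlapped between the libraries.

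The transcript rows of Gjb1 differ only in their first exon, and the signal lay in 1 of them. In rodents the gene is known to be started from a promoter used in liver and from another used in Schwann cells. The files list 3 transcript rows, which in GENCODE M21 (matched by transcript ID, build GRCm38) share an exon of 1478 nt that holds the whole coding sequence. Their first exons are 35, 87 and 107 nt long and start 0, 895 and 7358 bases from the most upstream start. The row with the 87 nt exon, ENSMUST00000052130, was at 308 FPKM (292 to 324) in NP and 292 FPKM (276 to 307) in Control. The rows ENSMUST00000119080 and ENSMUST00000119190 were listed at 0 in both libraries, with upper limits of 0.137 and 0.130 FPKM in NP and of 0.153 and 0.145 FPKM in Control. Reads in the shared exon do not tell the rows apart, so this split rests on the short first exons and on the authors' estimate. A row that spans the whole gene, introns included, was at 13.4 FPKM in NP and 14.0 FPKM in Control. Because that row is 9252 nt long, it took 20.4% of the gene's covered bases in NP and 22.1% in Control.

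**Figure D2:**
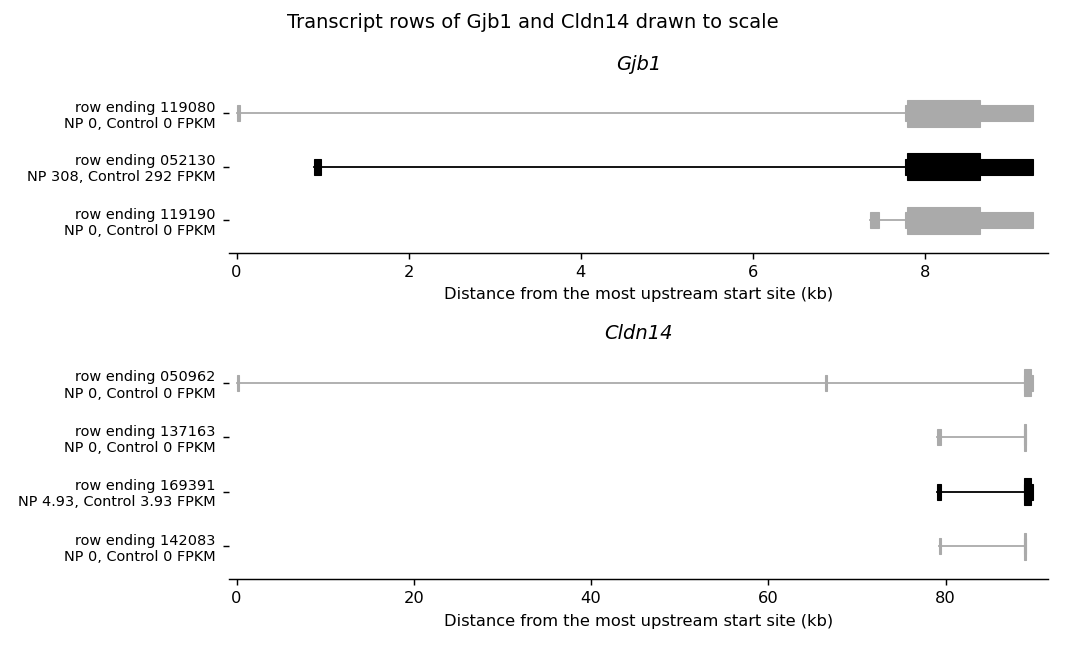
Transcript rows of Gjb1 and Cldn14, drawn to scale from the GENCODE M21 exons, with distance in kb from the most upstream start (tall boxes coding, low boxes untranslated). Rows above 0 FPKM are black and rows at 0 in both libraries grey, and 1 row of each gene is black, the Gjb1 row at 308 FPKM in NP and 292 FPKM in Control.

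The sequences around the 3 Gjb1 starts are shown because the signal lay with the middle one. They are RefSeq promoter windows of build GRCm38.p6 on the plus strand, with 250 bases before and 50 from the RefSeq start onward. Capitals mark 4 motifs searched on either strand. The core promoter element known as the TATA box was searched as TATAAA. A half-site of the liver factor HNF1 was searched as GTTAAT. The last motifs were the box named after its letters CCAAT, and the binding site of Sp1-type factors, written GGGCGG. The upstream window is chrX:101376126-101376425, that of the row with signal chrX:101376985-101377284 and the downstream one chrX:101383482-101383781. The middle row starts 38 bases after its RefSeq start.
Gjb1 upstream: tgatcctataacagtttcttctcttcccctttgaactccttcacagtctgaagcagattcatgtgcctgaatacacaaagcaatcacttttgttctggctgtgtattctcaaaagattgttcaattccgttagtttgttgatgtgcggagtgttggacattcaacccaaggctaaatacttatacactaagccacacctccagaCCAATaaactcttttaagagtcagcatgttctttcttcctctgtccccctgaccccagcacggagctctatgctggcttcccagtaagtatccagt
Gjb1 middle: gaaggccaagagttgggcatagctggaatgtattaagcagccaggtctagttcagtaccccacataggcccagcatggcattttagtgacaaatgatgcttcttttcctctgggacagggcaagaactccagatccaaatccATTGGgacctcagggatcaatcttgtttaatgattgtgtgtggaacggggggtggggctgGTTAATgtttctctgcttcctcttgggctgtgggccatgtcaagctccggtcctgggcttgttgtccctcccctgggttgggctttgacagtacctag
Gjb1 downstream: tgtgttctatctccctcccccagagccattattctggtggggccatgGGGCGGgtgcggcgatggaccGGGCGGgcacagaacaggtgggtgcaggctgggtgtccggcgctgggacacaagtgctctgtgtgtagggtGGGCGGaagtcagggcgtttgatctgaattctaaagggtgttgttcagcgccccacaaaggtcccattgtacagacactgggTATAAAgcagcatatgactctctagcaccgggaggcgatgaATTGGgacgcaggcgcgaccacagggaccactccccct
The middle window held GTTAAT from position -48 relative to its RefSeq start, a motif found in 7.1% of 32817 RefSeq promoter windows, and 1 CCAAT. The downstream window held TATAAA from position -29, found in 13.6% of windows, along with 1 CCAAT and 3 GGGCGG. The upstream window held 1 CCAAT, found in 37.4% of windows, and GGGCGG occurs in 35.6%. No hits overlapped one another. GC content was 43.3% upstream, 51.7% in the middle and 60.0% downstream. A further RefSeq window of Gjb1 matched no row of the files. These matches describe letters in the windows and not binding.

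The 5 claudins followed here had the same order in both libraries, with Cldn3 first and Cldn14 last. Cldn3, a claudin that tightens the junction, lies on chromosome 5 from 135462084 to 135463342. It was at 57.3 FPKM (52.3 to 62.3) in NP and 50.4 FPKM (45.6 to 55.3) in Control. Cldn1, a sealing claudin whose loss in mice opens the skin barrier, lies on chromosome 16 from 26356728 to 26371927. It was at 28.9 FPKM (26.7 to 31.1) in NP and 28.2 FPKM (25.9 to 30.5) in Control. Both values were somewhat higher in NP, by a ratio of 1.14 for Cldn3 and 1.03 for Cldn1, with overlapping intervals. Cldn3 overlaps Wbscr25, which was at 0 in both libraries.

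Cldn2 was the member with separate intervals. It forms pores for cations and water, and in rat liver its protein rises from the portal to the central side of the lobule. The gene lies on chromosome X from 136335367 to 136345925. It was at 12.5 FPKM (11.1 to 13.9) in NP and 16.1 FPKM (14.5 to 17.8) in Control, all of it in the row ENSMUST00000054889. The NP value was thus the lower, with a ratio of 0.776 and a log2 ratio of -0.34. Its coverage was 37.8 reads per base in NP and 38.2 in Control, while NP was the deeper library. The Cldn2 interval treats 2 other transcript rows and the gene-span row, at 0 in both libraries, as exact. With the upper limits that the authors give for those rows the intervals were 11.1 to 14.7 FPKM in NP and 14.5 to 18.4 FPKM in Control, which overlap. Under that reading 0 of the 9 members and 15.2% of all genes had separate intervals.

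Set against the most abundant claudin, Cldn3, the same Cldn2 values gave a lower ratio in NP. Cldn3 was itself somewhat higher in NP, with overlapping intervals. The ratios and shares that follow restate these values and add no separate evidence on Cldn2. The ratio of Cldn2 to Cldn3 was 0.218 in NP and 0.320 in Control. Cldn2 held 10.2% of the summed FPKM of the 5 claudins in NP and 13.4% in Control, and Cldn3 held 46.5% in NP and 42.0% in Control. The 5 claudins summed to 123 FPKM in NP and 119.96 FPKM in Control. The share of Cldn1 was 23.5% in each library. The Cldn2 promoter window, chrX:139800558-139800857 on the plus strand, is shown as that of the only member with separate intervals. Capitals mark the same motifs.
Cldn2: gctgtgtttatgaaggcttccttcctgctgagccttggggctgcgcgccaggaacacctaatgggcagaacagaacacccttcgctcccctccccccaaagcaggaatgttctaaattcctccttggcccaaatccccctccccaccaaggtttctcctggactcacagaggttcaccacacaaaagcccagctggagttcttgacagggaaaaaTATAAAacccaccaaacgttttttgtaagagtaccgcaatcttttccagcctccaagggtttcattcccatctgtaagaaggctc
It held TATAAA from position -35 and none of the other 3 motifs, and its row starts 20 bases after the RefSeq start. Among the 17 windows of the 9 genes, some of which overlap, TATAAA was found in this one and in the downstream Gjb1 window. Of all RefSeq windows, 13.6% held it.

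Markers of the position along the lobule were mixed. Of 8 pericentral hepatocyte genes past the filter, 0 reached 1.5-fold, 3 had log2 ratios above 0 and 5 below. The NP interval lay wholly above for 1 of them and wholly below for 2, against 7.73% and 9.58% of all genes, and the counts were the same for the 8 periportal genes. Glul, the glutamine synthetase of the last pericentral cells, was at 176 FPKM in NP and 165 FPKM in Control. Cyp2e1, a pericentral cytochrome P450, was at 4812 FPKM (4611 to 5013) in NP and 5880 FPKM (5634 to 6125) in Control. The pericentral list summed to 5944 FPKM in NP and 7083 FPKM in Control, most of it Cyp2e1, with Lhpp at 0. Of 8 periportal genes 0 were 1.5-fold higher and 1 was lower, against 3.60% and 5.33% of all genes. The lower gene was Ass1, an enzyme of the urea cycle. Ass1 was at 41.0 FPKM in NP and 67.5 FPKM in Control, and the periportal list summed to 3772 FPKM in NP and 3718 FPKM in Control. The part of zonation in the Cldn2 value was not tested.

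Cldn12, an atypical claudin without the usual scaffold-binding end, lies on chromosome 5 from 5505109 to 5514958. It was at 19.4 FPKM (17.6 to 21.2) in NP and 21.2 FPKM (19.2 to 23.2) in Control, with overlapping intervals. Its signal lay in 2 of 6 transcript rows, and their split was unequal in the libraries. The main row, ENSMUST00000060947, was at 14.0 FPKM (12.5 to 15.5) in NP and 17.3 FPKM (15.6 to 19.1) in Control. The second row, ENSMUST00000115445, was at 5.39 FPKM (4.35 to 6.42) in NP and 3.86 FPKM (2.91 to 4.81) in Control. The second row thus held 27.8% of the gene in NP and 18.2% in Control. Only the intervals of the main row were separate. The 2 rows cover nearly the same stretch, so their split rests largely on how the authors' estimate divides shared reads. By the main row alone the log2 ratio of Cldn12 was -0.29, against -0.12 for the sum.

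Ocln had the highest ratio of the 9 genes. It encodes occludin and lies on chromosome 13 from 101266462 to 101322673. It was at 12.3 FPKM (10.4 to 14.1) in NP and 9.29 FPKM (7.75 to 10.8) in Control, a ratio of 1.32 with intervals that still overlapped. Of its 5 transcript rows 4 held signal, and they did not move together. ENSMUST00000022140, the row with the most signal, was at 5.41 FPKM (4.30 to 6.51) in NP and 5.83 FPKM (4.68 to 6.97) in Control. ENSMUST00000069756 was at 2.36 FPKM (1.78 to 2.94) in NP and 1.28 FPKM (0.817 to 1.74) in Control. ENSMUST00000159459 was at 2.27 FPKM (1.28 to 3.27) in NP and listed at 0 in Control, with an upper limit of 0.116 FPKM. For ENSMUST00000160859, at 2.11 FPKM (1.25 to 2.98) in NP, the Control interval of 1.19 to 3.01 FPKM contained that of NP.

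The higher Ocln sum therefore came from 2 of its rows. Taken by its main row alone, Ocln had a log2 ratio of -0.09, against 0.37 for the sum. That main row held 44.1% of the gene in NP and 62.7% in Control. The authors' estimate divides the reads that rows of a gene share. Over all members, 13 of 29 transcript rows were above 0 in at least 1 library. Intervals were separate for 4 of these 13, with NP higher in 2 rows of Ocln and lower in the Cldn2 row and the main Cldn12 row. Among all 13126 transcript rows that averaged 1 FPKM or more and met the other steps of the filter, 27.3% had separate intervals.

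**Figure D3:**
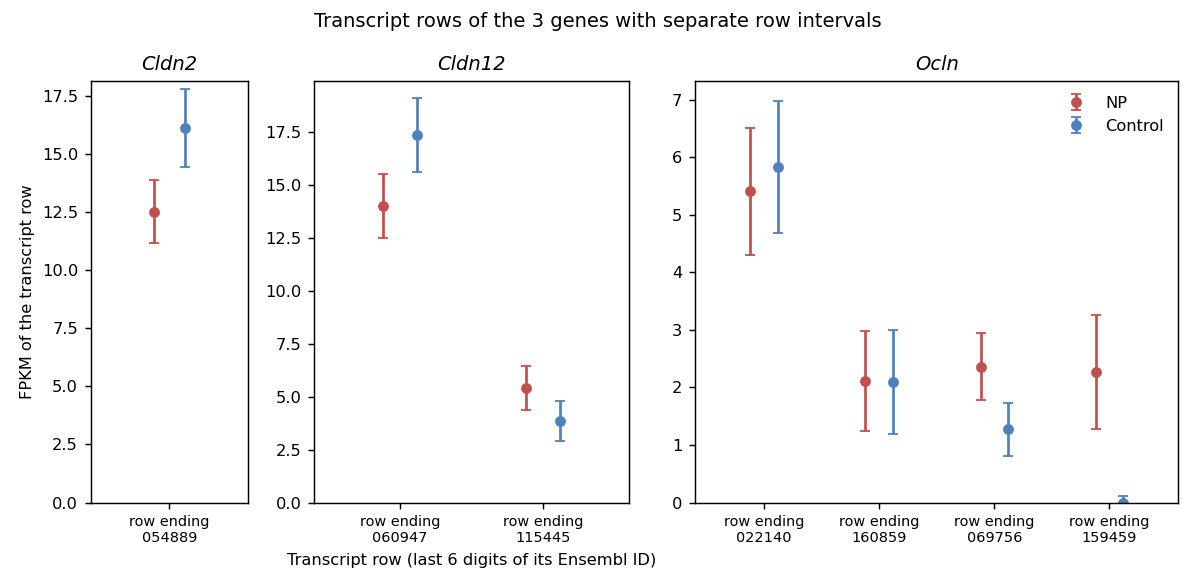
FPKM of the transcript rows above 0 for Cldn2, Cldn12 and Ocln in NP (red) and Control (blue), with the 95% interval of the estimate as bars, each panel on its own linear scale from 0. The bars are apart for the Cldn2 row, the main Cldn12 row and 2 Ocln rows, 1 of them at 2.27 FPKM in NP and 0 in Control.

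Tjp1 encodes a zonula occludens scaffold and lies on chromosome 7 from 72441051 to 72516125. It was at 5.54 FPKM (4.95 to 6.14) in NP and 5.72 FPKM (5.08 to 6.35) in Control. All of its signal lay in the row ENSMUST00000102592 in NP, while in Control the gene-span row added 0.0948 FPKM, which was 15.2% of the covered bases. Without that row Tjp1 was at 5.54 FPKM in NP and 5.62 FPKM in Control, so the ratio stayed near 1. Tjp3, a related scaffold gene that overlaps another expressed gene, was at 14.4 FPKM in NP and 11.7 FPKM in Control.

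Cldn14 was the least abundant member. It is expressed in liver, kidney and inner ear, and its loss causes deafness in mice and humans. The gene lies on chromosome 16 from 93919276 to 94009082 and was at 5.06 FPKM (3.83 to 6.30) in NP and 4.03 FPKM (2.86 to 5.19) in Control. The ratio was 1.26 with wide, overlapping intervals. Its only transcript row with signal was ENSMUST00000169391, at 4.93 FPKM in NP and 3.93 FPKM in Control. The row from the start 79020 bases further upstream, ENSMUST00000050962, was at 0 in both, with an upper limit of 0.143 FPKM in NP and 0.160 FPKM in Control. The gene-span row was at 0.130 FPKM in NP and 0.0961 FPKM in Control, yet at 89807 nt it took 61.8% of the covered bases in NP and 60.1% in Control. The windows of the distal start, chr16:94008788-94009087, and of the start with signal, chr16:93929768-93930067, on the minus strand, are shown for contrast, with capitals as before.
Cldn14 distal: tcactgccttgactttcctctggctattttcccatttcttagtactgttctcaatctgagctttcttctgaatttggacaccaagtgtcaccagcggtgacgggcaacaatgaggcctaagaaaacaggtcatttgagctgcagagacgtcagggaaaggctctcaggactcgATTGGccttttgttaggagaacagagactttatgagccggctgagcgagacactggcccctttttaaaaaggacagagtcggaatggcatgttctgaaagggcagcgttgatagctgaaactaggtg
Cldn14 proximal: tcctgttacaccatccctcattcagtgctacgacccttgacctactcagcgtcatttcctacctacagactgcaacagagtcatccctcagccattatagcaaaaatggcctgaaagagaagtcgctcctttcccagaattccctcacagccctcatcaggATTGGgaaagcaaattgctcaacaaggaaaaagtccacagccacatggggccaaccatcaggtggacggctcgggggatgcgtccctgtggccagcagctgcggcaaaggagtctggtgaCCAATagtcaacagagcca
The distal window held 1 CCAAT and the proximal one 2, and neither held any of the other 3 motifs. A further RefSeq window of Cldn14, chr16:93929518-93929817, overlaps the proximal one and also takes in the start with signal. It held GTTAAT from position -6, and the Cldn1 window held that motif from position -241. GTTAAT was found in 7.1% of all RefSeq windows. GC content was 48.0% in the distal window and 52.7% in the proximal one.

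In the order of levels, which FPKM gives per length, neighbours were mostly apart. In NP the order was Gjb1, Gjb2, Cldn3, Cldn1, Cldn12, Cldn2, Ocln, Tjp1 and Cldn14. Only Cldn2 and Ocln, and Tjp1 and Cldn14, had overlapping intervals with the next gene. In Control the order was the same, and only Tjp1 and Cldn14 overlapped. The ratios had no common direction: 6 were above 0 and 3 below, with a median log2 ratio of 0.07, against -0.03 over all 10533 genes. They ran from -0.34 for Cldn2 to 0.37 for Ocln, a range that held 78.6% of all genes.

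**Figure D4:**
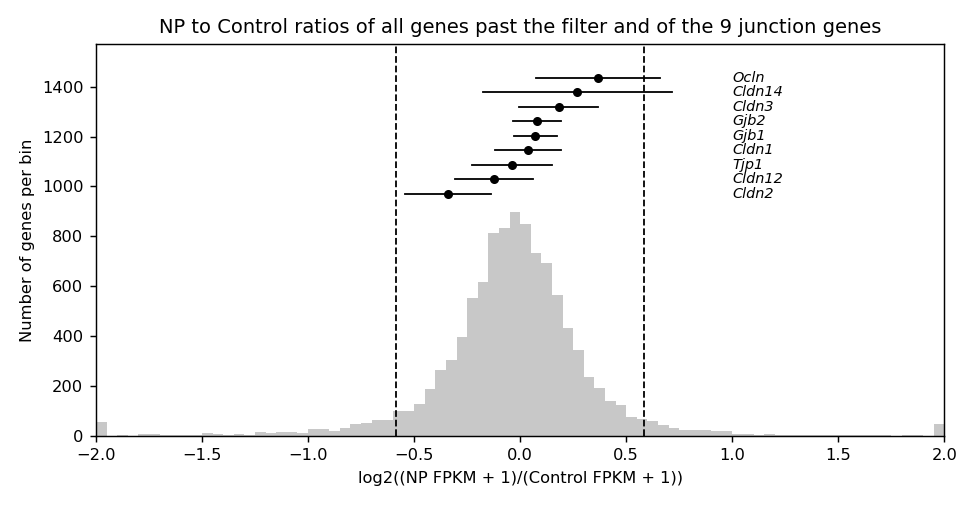
Number of genes by log2((NP FPKM + 1)/(Control FPKM + 1)) for the 10533 genes past the filter (grey bars; the end bins hold all genes beyond the axis), with the 9 junction genes above, their bars combining the intervals of both libraries. Dashed lines mark 1.5-fold, and all 9 points lie between them, from -0.34 for Cldn2 to 0.37 for Ocln.

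Other junction genes were called about as often as genes in general. Of 102 listed names, 90 were in the files and 48 passed the filter. Names not found include current symbols of genes that the files hold under older ones, such as Afdn for Mllt4. Of these 48, 2 were at least 1.5-fold higher in NP and 1 was lower, against 3.60% and 5.33% of all genes. The NP interval lay wholly above for 3 and wholly below for 5, against 7.73% and 9.58%. The median log2 ratio was -0.05.

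The list of other tight junction membrane and scaffold genes held 26 of these 48 genes. All 3 genes past 1.5-fold were among the 26, against 8.92% of all genes. Ildr2, an angulin-family gene of tricellular junctions, was at 3.10 FPKM (2.70 to 3.50) in NP and 1.04 FPKM in Control, with separate intervals. Its signal lay in 1 transcript row, and the NP value was 2.99 times that of Control. Marveld3, a relative of occludin, was at 3.28 FPKM (2.37 to 4.18) in NP and 1.72 FPKM (1.16 to 2.29) in Control. Its main row, ENSMUST00000051430, was at 2.17 FPKM in NP and 1.53 FPKM in Control with overlapping intervals, and ENSMUST00000001722 was at 0.937 FPKM in NP and listed at 0 in Control. By the main row alone the log2 ratio of Marveld3 was 0.33, against 0.65 for the sum, and it was under 1.5-fold. With the upper limits of rows at 0 its summed intervals overlapped. Pard3, a polarity scaffold, was at 7.91 FPKM (7.04 to 8.78) in NP and 12.4 FPKM (11.2 to 13.7) in Control. The lower Pard3 value lay in the row ENSMUST00000160272, listed at 0 in NP and at 5.01 FPKM in Control, while ENSMUST00000162907 was at 7.84 FPKM in NP and 7.36 FPKM in Control. The log2 ratio of Pard3 was -0.59 for the sum and 0.08 by its highest row. It was -0.57, under 1.5-fold, when NP was divided by its median ratio of 0.980. The most abundant genes of the list differed little. Lsr, a tricellular junction protein and lipoprotein receptor, was at 47.4 FPKM in NP and 51.2 FPKM in Control. F11r, a junctional adhesion molecule, was at 36.5 FPKM in NP and 35.5 FPKM in Control, and Cgnl1, a cingulin-like scaffold, at 19.7 FPKM in NP and 21.4 FPKM in Control. The median of the list was -0.01.

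The adherens junction and desmosome list had 0 of 17 genes past 1.5-fold, against 8.92% of all genes, and a median of -0.07. Krt18, a keratin of hepatocytes, was at 117 FPKM in NP and 114 FPKM in Control, and its partner Krt8 at 41.5 FPKM in NP and 40.6 FPKM in Control. Ctnnb1, which encodes beta-catenin, was at 57.2 FPKM in NP and 59.4 FPKM in Control. Of 20 other claudin genes in the files 2 passed the filter, with overlapping intervals. Cldn5, the claudin of endothelium, was at 3.91 FPKM in NP and 4.79 FPKM in Control. The gene the files call Cldn25 was at 12.2 FPKM in both, and its identifier now has the symbol Cldnd1. Without it and a renamed gene at under 1 FPKM, the 5 claudins above held 96.5% of claudin FPKM in NP and 95.6% in Control.

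**Figure D5:**
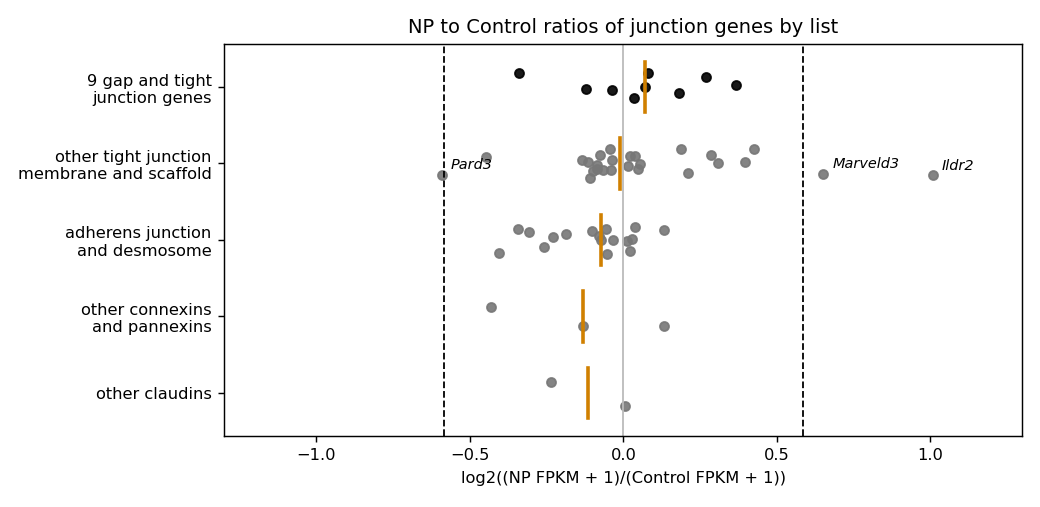
Log2 ratio of NP to Control for the 9 junction genes (black) and for each gene past the filter in the other lists (grey), with orange lines at the list medians and dashed lines at 1.5-fold. Ildr2 and Marveld3 lie beyond the line on the higher side and Pard3 on the lower side.

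Markers of the cells that a liver sample holds mostly stayed under 1.5-fold on the log2(FPKM + 1) scale. The signs of their ratios differed by list. Of all genes, 45.6% had a positive log2 ratio, 7.73% an NP interval wholly above and 9.58% one wholly below. All 6 genes of the general hepatocyte list had log2 ratios above 0, 5 of them with an NP interval wholly above. They summed to 48716 FPKM in NP and 37035 FPKM in Control, most of it Alb. The hepatocyte genes of the lobule lists above were mixed. Log2 ratios were below 0 for 5 of 8 pericentral and 4 of 8 periportal genes past the filter. The endothelial list was not purely sinusoidal, as it held Cldn5 and Gja4. It summed to 54.6 FPKM in NP and 75.9 FPKM in Control, with Gja5 at 0. Its markers had log2 ratios below 0 in 7 of 7 genes past the filter. Kupffer cell markers did so in 4 of 4 and summed to 16.8 FPKM in NP and 32.7 FPKM in Control. Stellate cell markers did so in 3 of 4, with sums of 72.8 FPKM in NP and 88.8 FPKM in Control. Blood markers did so in 2 of 3, with 560 FPKM in NP and 618 FPKM in Control. Of these 4 lists only the Kupffer list had a gene past 1.5-fold, Clec4f, at 7.63 FPKM in NP and 18.4 FPKM in Control. Emr1, a further Kupffer marker, was under 1 FPKM. The NP interval lay wholly below for 2 endothelial, 2 Kupffer, 2 stellate and 1 blood marker, and wholly above for 0. Their part in the junction gene values was not tested.

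Markers of bile duct cells, whose own junctions hold Cldn4 and Cldn7, were mostly under 1 FPKM. Of 8 cholangiocyte markers 2 passed the filter, Spp1 and Sox9, and the list summed to 14.4 FPKM in NP and 18.2 FPKM in Control. Cldn4 was at 0.0558 FPKM in NP and 0.0628 FPKM in Control, and Cldn7 at 0.190 FPKM in NP and 0.405 FPKM in Control. Epcam, Krt19, Krt7 and Cftr were also under 1 FPKM, while Spp1 was at 11.4 FPKM in NP and 15.1 FPKM in Control. How much bile duct cells add to the junction gene values was not tested. All 5 markers of intestine and other epithelium were under 1 FPKM, with Krt20 and Vil1 at 0 in both libraries.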

How the data were processed

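The authors deposited FPKM values with 95% intervals and read coverage, a signal not scaled to depth. The layout is the Cufflinks isoform tracking table, per the file headers. The submitters' processing notes name TopHat2 2.1.0, Cufflinks 2.2.1.0 and mm9. The sources used here do not give read length, strandedness or settings. Per the labels' protocols, Trizol RNA entered an Illumina TruSeq kit. Fragment totals were not given, so depth is known only as coverage per FPKM, the median over transcript rows of at least 5 FPKM.

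FPKM was summed by gene identifier, and interval half-widths were combined in quadrature, with a row at 0 given no width. Interval statements on single rows use the deposited bounds. The filter asked for an average of 1 FPKM or more, OK status in every row, a transcript no shorter than 300 nt and a name outside the small RNA classes. Ratios were log2((NP + 1)/(Control + 1)), which understates differences of low genes, while plain ratios are of FPKM. Start positions were converted to count from 1. GENCODE M21 and RefSeq tables (GRCm38.p6) were joined by ID or symbol, 28 of 29 transcript rows and 9 of 9 genes, with no conversion of coordinates. Covered bases are coverage times row length. Positions in promoter windows count from the RefSeq start as 0.

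Members and lists were chosen with earlier results of these data known, and the motifs after the windows were seen. Outside the members, the 3 most abundant genes of a list and those past 1.5-fold were to be named, and Tjp3 and the marker genes were added for context. Alternatives covered pseudocount, rows, scaling, filter and size rule. Python 3.11.15, pandas 2.3.3, numpy 2.4.6 and matplotlib 3.10.9 were used.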

Additional observations from a re-analysis of the deposited data

How the results depend on the processing

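No paired analysis was possible because each group has 1 library, and for the same reason no library could be left out. The log2 ratios of the 9 junction genes were computed again with a pseudocount of 0.1 FPKM, with transcript rows only, with the highest transcript row and with NP divided by its median ratio of 0.980. Of these 36 values 35 moved by less than the half-width of the ratio's interval. The exception was Ocln by its highest row, with a log2 ratio of -0.0922. For Gjb2, Cldn1, Cldn2 and Cldn3 only 1 row was above 0, so the choice of rows could not change their ratios. Cldn12 had no gene-span signal, so its value with transcript rows only could not change either. The highest absolute value of the 36 was 0.40, and 0 of the 9 junction genes passed 1.5-fold or 2-fold under any alternative. By separate intervals 1 was lower, and 0 were with the upper limits of rows at 0, a version added after the data were seen. All 18 shares of a gene in its highest row moved by less than the half-width of their interval over transcript rows only. Where no gene-span row had signal the share could not move. This held for Gjb2, Cldn1, Cldn2, Cldn3 and Cldn12 in both libraries and for Tjp1 in NP.

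Over all genes, 379 were 1.5-fold higher and 561 lower in NP. These counts were 218 and 246 for genes averaging 5 FPKM or more, 120 and 198 by the 2-fold rule, 814 and 1009 by separate intervals, and 740 and 866 with upper limits. For the other junction genes, with 2 higher and 1 lower, they were 0 and 1 at an average of 5 FPKM or more and 1 and 0 by the 2-fold rule. They were 2 and 2 with a pseudocount of 0.1 FPKM, 3 and 0 by the highest row, and 2 and 0 with NP divided by its median ratio. Separate intervals gave 3 and 5, and with upper limits 1 and 4. Of 99 values for single lists 10 moved. The median of the list of other connexins could not be had at an average of 5 FPKM or more. The cause of these shifts was not tested.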

Other observations

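Genes of the epithelial polarity complexes, picked here after their values were seen, were not uniform. Prkci, an atypical protein kinase C that partners with Pard3 and Pard6b, was at 5.41 FPKM (4.69 to 6.13) in NP and 3.78 FPKM (3.15 to 4.40) in Control. Pard6b was at 4.31 FPKM in NP and 3.04 FPKM in Control, with overlapping intervals. Mpp5, a scaffold of the Crumbs complex, was at 3.01 FPKM in NP and 4.47 FPKM in Control, with the NP interval wholly below. Of the adherens junction and desmosome genes, 3 of 17 had an NP interval wholly below that of Control and 0 wholly above, against 9.58% and 7.73% of all genes. They were Pkp4, a plakophilin-family protein, at 18.3 FPKM in NP and 24.5 FPKM in Control, Mllt4, the nectin-binding afadin, at 15.6 FPKM in NP and 18.8 FPKM in Control, and Dsc2, a desmosomal cadherin, at 11.1 FPKM in NP and 14.4 FPKM in Control. With the upper limits of rows at 0, the intervals of Prkci and Mllt4 overlapped between the libraries, and those of Mpp5, Pkp4 and Dsc2 were still separate.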
